A study of Mus musculus with 6 samples.

Results

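Secretory1 was 1 of 2 secretory clusters that the authors named in mouse tracheal epithelial cultures, and its cells were taken here by that name alone. It held 4861 of 23871 cells (20.4%). Primary tracheal epithelial cells of C57BL/6 mice aged 12 weeks had been grown at air-liquid interface, which lets basal cells differentiate into secretory and multiciliated cells, and single cells were profiled by droplet scRNA-Seq. There were 3 WT/WT cultures (WT1, WT2 and WT3) and 3 cultures of littermates homozygous for a missense allele of Dnaaf5 (MIS/MIS, named MT1301, MT1306 and MT1383). Each culture came from a different mouse, and the allele was present in every cell of the animal. Dnaaf5 encodes a cytoplasmic factor for the assembly of the dynein motors of motile cilia, and secretory cells bear no motile cilia. Secretory1 gave 370, 1289 and 524 cells in the WT/WT cultures and 891, 374 and 1413 cells in the MIS/MIS cultures. Its nearest neighbour in name, Secretory2, held 2870 cells.

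Secretory cells of the airway, of which the club cell is the best known, release small proteins into the fluid that covers the epithelium. Among these are the secretoglobins, the BPI fold protein Bpifa1 and C-type lectins such as Reg3g, which binds bacteria. Club cells also metabolize inhaled chemicals through cytochrome P450 and related enzymes, and they arise from basal cells in a step that depends on Notch signalling. Goblet cells are the mucin-rich secretory cells of the same epithelium.

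Promoter stretches from the RefSeq promoter table (GRCm38.p6) are shown for some of the Secretory1 markers, to set their upstream letters side by side. They are Scgb3a1 on the plus strand at chr11:49663445-49663594, Bpifa1 on the plus strand at chr2:154142730-154142879 and Reg3g on the minus strand at chr6:78468875-78469024. Each stretch holds the 150 bases that end just before the annotated start of transcription, 5′ to 3′ on the strand of the gene. Capitals mark matches on either strand to TATAAA (the TATA box), TGTTTNC (forkhead factors), CAAGTG (NK2 homeobox factors), TTNNGNAA (C/EBP factors) or TGANTCA (AP-1).
Scgb3a1: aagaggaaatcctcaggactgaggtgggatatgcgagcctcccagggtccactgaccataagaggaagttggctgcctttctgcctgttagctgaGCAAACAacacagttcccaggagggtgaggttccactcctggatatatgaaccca
Bpifa1: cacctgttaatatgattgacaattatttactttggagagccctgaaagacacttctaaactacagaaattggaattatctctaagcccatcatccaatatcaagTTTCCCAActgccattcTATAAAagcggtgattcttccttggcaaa
Reg3g: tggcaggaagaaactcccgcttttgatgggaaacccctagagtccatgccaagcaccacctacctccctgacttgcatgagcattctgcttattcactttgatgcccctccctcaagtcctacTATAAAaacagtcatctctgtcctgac
TATAAA was found in the Bpifa1 and Reg3g stretches, the forkhead letters on the minus strand in Scgb3a1, and the C/EBP letters on the minus strand in Bpifa1. Of 32851 promoters in the table, 7.57% held TATAAA in the same window, 10.3% the forkhead letters, 22.7% the C/EBP letters, 6.63% the NK2 letters and 4.24% the AP-1 letters. No motif in capitals overlapped another. Of the 15 genes with the highest ratio of the Secretory1 level to that of any other cluster, 9 had an entry. The forkhead letters were found in 2 of these 9 (Scgb3a1 and Pon1), TATAAA in 1 (Cxcl15), the C/EBP letters in 1 (Pon1), and the NK2 and AP-1 letters in 0.

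Values are unique molecular identifiers (UMIs), which count transcript molecules, summed over the Secretory1 cells of a mouse and given per 1000000 UMIs of that sum (CPM). The cultures are listed throughout in the order given above. The sums held between 16798401 and 42897903 UMIs. The median Secretory1 cell held 33387 UMIs and 5459 genes, and the median per culture ran from 24684 UMIs in MT1383 to 45643 in WT1. In 73 cells (1.502%) more than 7500 genes were detected. Of the Secretory1 barcodes, 24 were also found in another library and 4 of these were Secretory1 cells in both. Doublets were not called here. The clusters were named by the authors from the same genes, so that differences between clusters are given as descriptions without a test. Of 16 clusters, 15 had at least 20 cells in some mouse and are compared.

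All 5 genes that mark the cluster had a higher mean over mice in Secretory1 than in any of the other 14 clusters. Scgb3a1, a secretoglobin, averaged 661 ± 514 CPM (SD over 6 mice) in Secretory1 against 50.1 CPM in Basal6, the next highest cluster. Scgb3a2, a secretoglobin that is known from club cells, averaged 13754 ± 5313 CPM against 3036 CPM in Secretory2. Scgb1a1, the classical club cell secretoglobin, averaged 729 ± 344 CPM against 259.6 CPM in Basal8. The mean in Basal8 rested on 1 mouse: WT1 had 1149 CPM there, and the other 4 mice with at least 20 Basal8 cells had between 2.08 and 67.8 CPM. In WT1 the Basal8 level was thus above that of Secretory1 (1127 CPM). Bpifa1 averaged 15035 ± 5739 CPM against 10470.1 CPM in Secretory2, a ratio of 1.44. Reg3g averaged 38266 ± 11200.2 CPM against 25492 CPM in Multiciliated1, a ratio of 1.501. The ratio to the next cluster was 13.0 for Scgb3a1, 4.53 for Scgb3a2 and 2.80 for Scgb1a1, each above those of Bpifa1 and Reg3g. Against Secretory2 alone, within each mouse, the order differed. The mean log2 ratio there was 4.69 for Scgb3a1, 2.18 for Scgb3a2, 2.04 for Reg3g, 1.55 for Scgb1a1 and 0.51 for Bpifa1.

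**Figure D1:**
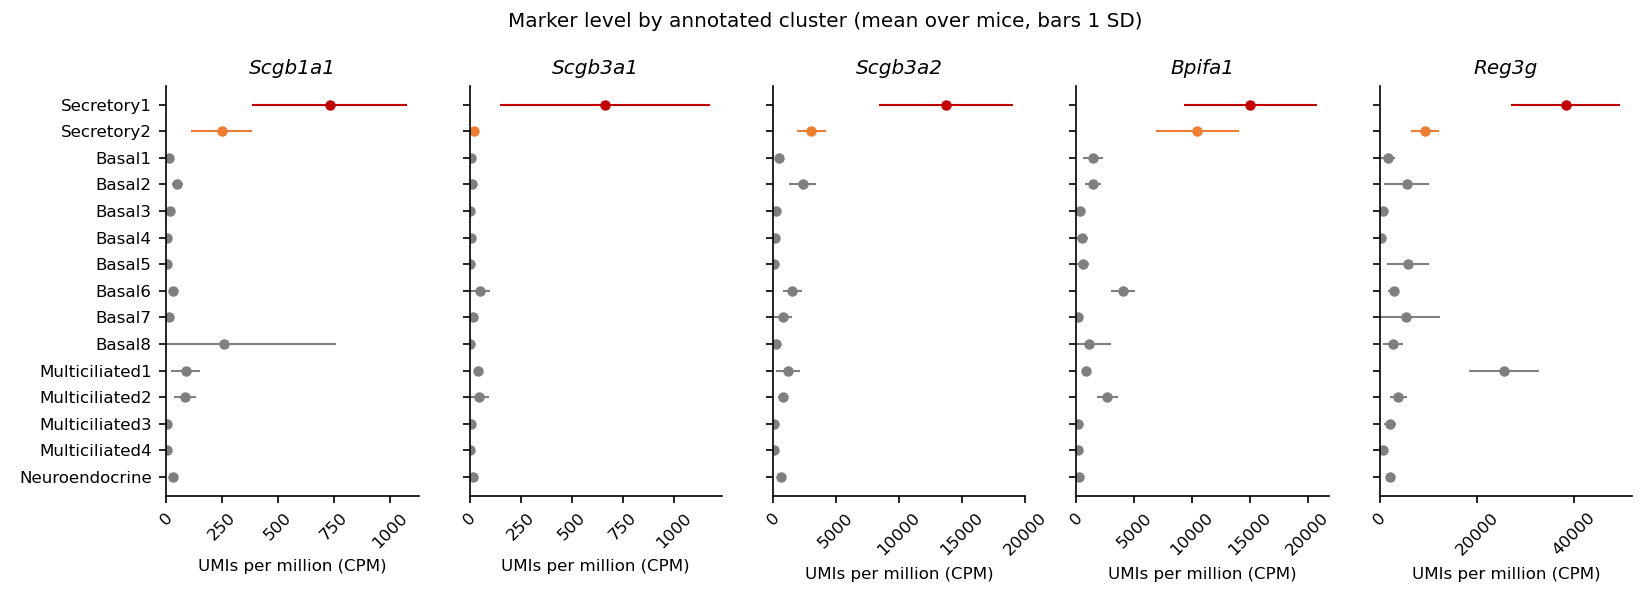
Level of the 5 marker genes (x axis, CPM) in the 15 clusters with at least 20 cells in some mouse (y axis), as the mean over mice with bars of 1 SD; Neuroendocrine had 1 such mouse and has no bar. Secretory1 (red) has the highest mean for each gene, while Secretory2 (orange) comes near it for Bpifa1 and Multiciliated1 for Reg3g.

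The markers varied widely between cultures, and the variation crossed the genotypes. Scgb3a1 stood at 1237, 187 and 360.0 CPM in WT/WT and 163, 709 and 1314 CPM in MIS/MIS cultures. It was high in WT1, MT1306 and MT1383 and low in WT2, WT3 and MT1301. Scgb1a1 stood at 1127, 913 and 363 CPM in WT/WT and 289.8, 687 and 997 CPM in MIS/MIS cultures. Its lowest cultures were WT3 and MT1301, 1 of each genotype. Scgb3a2 was at 16005, 10376 and 9066 CPM in WT/WT and 8834, 15891 and 22352 CPM in MIS/MIS cultures. The order of WT1, MT1306 and MT1383 above the other cultures was the one seen for Scgb3a1. Bpifa1 was at 22128, 8145 and 12677 CPM in WT/WT and 9452, 19258 and 18547 CPM in MIS/MIS cultures, with the same 3 cultures on top. Reg3g was at 40128, 32649.8 and 39431 CPM in WT/WT and 27883, 30628 and 58875 CPM in MIS/MIS cultures. MT1383 was the highest, and the genotypes overlapped. Together the 5 genes made up 6.49% ± 1.44 of all UMIs in WT/WT Secretory1 cells and 7.20% ± 2.80 in MIS/MIS Secretory1 cells (n = 3 each), against 2.31% ± 0.668 in Secretory2 (n = 6).

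**Figure D2:**
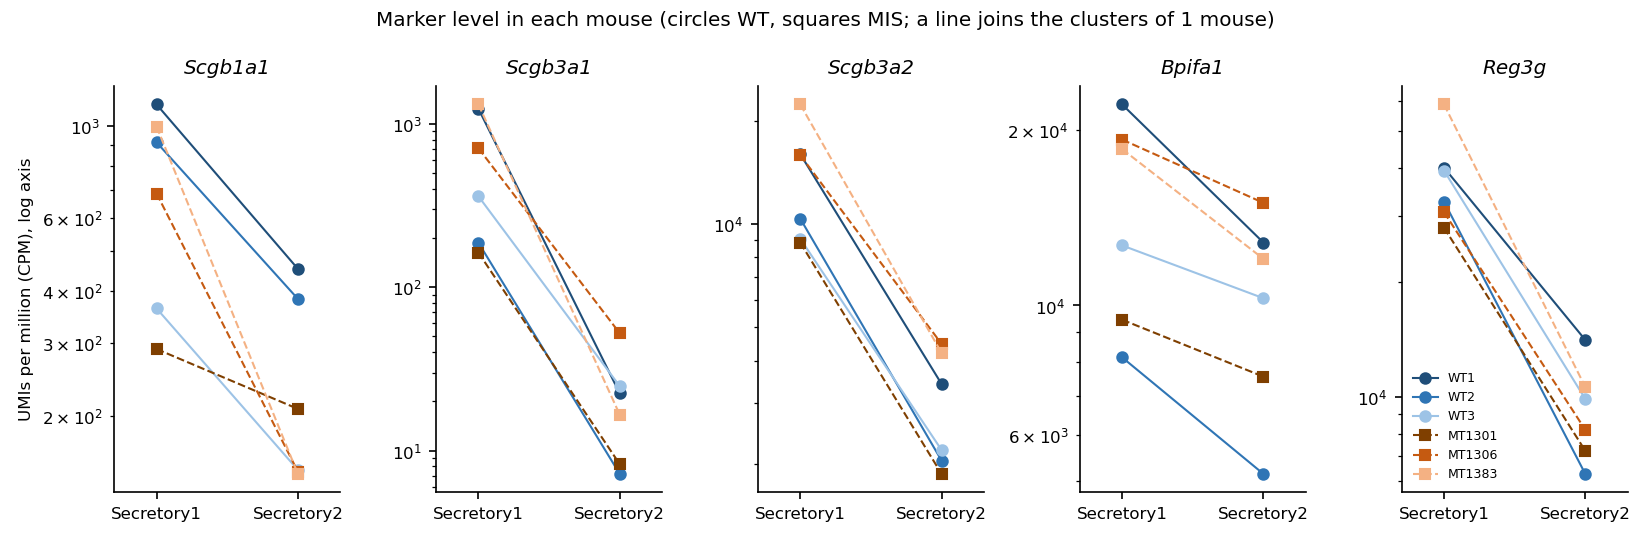
Level of the 5 markers (y axis, CPM on a log axis) in Secretory1 and Secretory2 of each mouse; circles are WT/WT, squares MIS/MIS, and a line joins the 2 clusters of 1 mouse. Every line falls from Secretory1 to Secretory2, steeply for Scgb3a1 and least for Bpifa1, and the 2 genotypes are interleaved.

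Cells of the cluster were not uniform for the low-level secretoglobins. A UMI of Scgb3a2 was found in 98.8% ± 1.15 of Secretory1 cells (mean and SD over 6 mice) and one of Reg3g in 99.9% ± 0.239, whereas Scgb1a1 was found in 70.8% ± 9.19 and Scgb3a1 in 63.2% ± 14.9. After each cell was thinned to 5000 UMIs, Scgb1a1 was found in 44.5% ± 11.1 and Scgb3a1 in 37.9% ± 15.6 of Secretory1 cells. Free RNA in droplets gives UMIs to cells that do not make a transcript, so Multiciliated3, a ciliated cluster, is given beside these. At the same thinned depth it held a UMI of Scgb1a1 in 2.33% ± 1.63 of cells, of Scgb3a1 in 1.24% ± 1.08, of Scgb3a2 in 20.6% ± 8.42 and of Reg3g in 71.8% ± 11.7, against 95.1% ± 3.59 for Scgb3a2 and 98.3% ± 1.45 for Reg3g in Secretory1. In thinned cells of Basal4, a basal cluster, the shares were 0.86% ± 0.84 for Scgb1a1 and 3.01% ± 2.72 for Scgb3a1 (4 mice). They were 19.8% ± 11.4 for Scgb3a2 and 38.2% ± 18.9 for Reg3g, the latter below that of Multiciliated3. The part of free RNA in these shares was not tested. Before thinning, the median cell had 26360 UMIs in Multiciliated3 and 33387 in Secretory1. Lcn2, which encodes an iron-binding siderophore trap, was found in 89.1% ± 7.40 of thinned Secretory1 cells and 29.4% ± 9.47 of thinned Secretory2 cells.

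Of 2725 genes with at least 50 CPM in Secretory1, 139 (5.10%) had their highest level there, and 13 of these were at least 2-fold above the next cluster. The 15 highest ratios belonged to Scgb3a1, Sult1c1, Spink1, Trf, Sult1c2, Scgb3a2, Pon1, Cxcl15, Gm41715, Scgb1a1, Cxcl5, Pigr, Lrg1, Tspan33 and Lif. Trf, the iron carrier transferrin, stood at 1878, 818 and 1238 CPM in WT/WT and 1053, 1733 and 2984 CPM in MIS/MIS cultures, against 201 CPM in Basal7. All 6 cultures had at least 818 CPM, and the highest was MT1383. Pon1, a secreted lactonase and esterase, averaged 416 ± 149 CPM against 115 CPM in Secretory2. Spink1, a secreted trypsin inhibitor, averaged 63.4 ± 40.0 CPM against 5.38 CPM in Multiciliated2. The cytosolic sulfotransferases Sult1c1 and Sult1c2 averaged 68.3 ± 34.6 CPM and 94.5 ± 34.8 CPM, against 4.42 CPM in Multiciliated1 and 12.5 CPM in Multiciliated1. For these genes the ratio to the next cluster was 10.1 for Spink1, 12.8 for Sult1c1 and 7.06 for Sult1c2. The chemokine genes Cxcl15 and Cxcl5 averaged 227 ± 44.0 CPM and 82.9 ± 12.2 CPM. Pigr, the receptor that carries IgA across the epithelium into the lumen, stood at 296, 84.1 and 139.6 CPM in WT/WT and 99.2, 256 and 418 CPM in MIS/MIS cultures. Like Scgb3a1 it was high in WT1, MT1306 and MT1383. Lif, a cytokine of the interleukin-6 family, was the last gene inside the list with a log2 ratio of 0.85, and Tacr1, with 0.83, was the first outside it.

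Secretory1 and Secretory2 were then compared within each mouse, with every mouse counted equally. Secretory2 gave 298, 1058 and 256 cells in the WT/WT and 660, 419 and 179 cells in the MIS/MIS cultures. Its sum in MT1383 held 3921247 UMIs, the fewest of the 6. Over the 3052 genes with at least 50 CPM in either cluster, 73 had a mean log2 ratio of at least 1 and 20 of at most -1. The 15 highest ratios belonged to Spink1, Sult1c1, Scgb3a1, Lcn2, Lrg1, Trf, Cxcl5, Cd74, Sult1c2, Cyp2b10, Lyz2, Scd1, Cyp2a5, Prom1 and Scgb3a2, each higher in Secretory1 in 6 of 6 mice. Lcn2 stood at 2706, 1198 and 3012 CPM in WT/WT and 2322, 4577 and 3371 CPM in MIS/MIS cultures in Secretory1 and at 237, 111 and 185 CPM in WT/WT and 166, 413 and 405 CPM in MIS/MIS cultures in Secretory2. The ranges of the clusters do not overlap, and the log2 ratio was 3.54 ± 0.33 (SD, n = 6). Lyz2, which encodes lysozyme and is made by macrophages as well as by secretory epithelium, stood at 2515, 1332 and 1541 CPM in WT/WT and 2025, 2257 and 2572 CPM in MIS/MIS cultures in Secretory1. Its mean in Secretory2 was 317 ± 178 CPM, but Secretory1 was not the cluster with its highest level. Thinned Multiciliated3 cells held a UMI of Lyz2 in 54.0% ± 14.3 of cells, against 59.9% ± 7.88 in Secretory1. The cytochrome P450 genes Cyp2b10 and Cyp2a5 had log2 ratios of 2.91 ± 0.50 and 2.30 ± 0.34, though both were higher still in a multiciliated cluster (215 CPM in Multiciliated3 and 1959 CPM in Multiciliated1). Scd1, a desaturase of fatty acid synthesis, had a log2 ratio of 2.69 ± 0.47. Cd74, the invariant chain of MHC class II, had one of 3.06 ± 0.61, though its level too was higher in another cluster.

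The 10 lowest ratios belonged to Krt5, Dapl1, Upk3bl, S100g, Igfbp3, Id4, Pcolce, Glul, Ttc36 and Capg, each lower in Secretory1 in 6 of 6 mice. Krt5, the keratin of basal cells, stood at 7.86, 6.60 and 4.78 CPM in WT/WT and 10.95, 2.26 and 3.12 CPM in MIS/MIS cultures in Secretory1 and at 54.1, 129 and 113 CPM in WT/WT and 129, 40.8 and 91.3 CPM in MIS/MIS cultures in Secretory2. Secretory2 thus retained a level that Secretory1 did not have, and both were far below the 1202 CPM in Basal4. Dapl1, another gene of basal cells, had a log2 ratio of -2.53 ± 0.38. Igfbp3, a binding protein of insulin-like growth factors, had one of -2.07 ± 0.38, and Glul, glutamine synthetase, one of -1.43 ± 0.26.

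**Figure D3:**
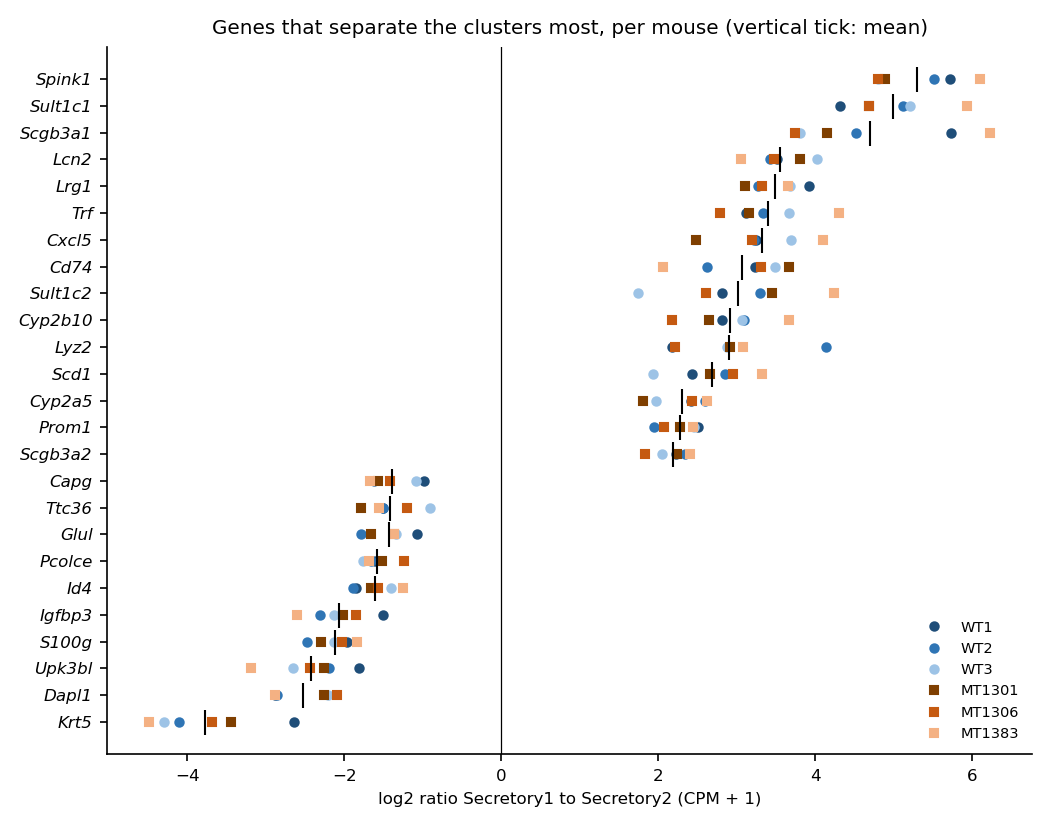
Log2 ratio of Secretory1 to Secretory2 (x axis, CPM plus a pseudocount of 1) for the 15 highest and 10 lowest genes (y axis), 1 point per mouse, with the mean as a vertical tick. All points of the upper 15 genes lie right of 0 and all points of the lower 10 left of it, in both genotypes.

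For gene lists, the genes with at least 10 CPM in either cluster were counted as higher or lower where all 6 mice went the same way. Of all 8098 such genes, 15.6% were higher and 49.5% lower in Secretory1, and the median log2 ratio was -0.15. CPM shares a fixed total, and the 5 markers alone take more of it in Secretory1 (6.49% and 7.20% against 2.31%), so the counts were repeated with each mouse centred on its median gene, which gave 2231 genes higher and 2097 lower, in place of 1264 and 4012. Of 14 antimicrobial and defence genes, 12 were higher and 0 lower under both scalings, with a median log2 ratio of 1.92. Ltf, the iron-binding protein lactoferrin, stood at 3202, 2905 and 3054 CPM in WT/WT and 3607, 2708 and 3014 CPM in MIS/MIS cultures, against 1681 ± 468 CPM in Secretory2. The chemokine Cxcl17 averaged 1040.3 ± 326 CPM against 383 ± 111 CPM. The protease inhibitor gene Wfdc2 was an exception in the list, with 8736 ± 948 CPM in Secretory1 and 9999.8 ± 769 CPM in Secretory2. Of the mucus and goblet genes, 6 of 10 were higher and 2 lower, the latter 0 after centring. The cell surface mucin Muc1 averaged 369.7 ± 78.1 CPM, and the granule glycoprotein Gp2 14.7 ± 10.7 CPM against 1.24 ± 1.18 CPM.

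Of 29 xenobiotic enzymes of club cells, 14 were higher and 3 lower in Secretory1 (20 and 3 after centring), with a median log2 ratio of 0.28. Cyp2f2, the P450 by which club cells are often recognized, stood at 9451, 10238 and 9449.5 CPM in WT/WT and 9729, 9228 and 8269 CPM in MIS/MIS cultures in Secretory1 and averaged 8356 ± 409.7 CPM in Secretory2. It was within a narrow range in all 6 cultures. The carbonyl reductase Cbr2 had a log2 ratio of 0.27 ± 0.12, the glutathione transferase Gsto1 one of 0.56 ± 0.16, and the retinaldehyde dehydrogenase Aldh1a1 one of 0.73 ± 0.33. Gsta4, a glutathione transferase for lipid aldehydes, went the other way with -0.37 ± 0.16.

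Of 37 genes for protein entry and folding in the endoplasmic reticulum, 21 were higher and 5 lower in Secretory1 (28 and 1 after centring). The translocon subunit Sec61b averaged 486 ± 32.6 CPM against 287 ± 26.8 CPM, and Xbp1, a transcription factor of the unfolded protein response, stood at 185, 163 and 163 CPM in WT/WT and 178, 173 and 178 CPM in MIS/MIS cultures, against 97.9 ± 10.9 CPM. The chaperone Hspa5 averaged 418 ± 41.7 CPM in Secretory1 and 418 ± 51.0 CPM in Secretory2, so that the list did not move as 1 block. The ribosomal protein genes went the other way, with 5 of 76 higher and 70 lower (5 and 68 after centring) and a median log2 ratio of -0.42. Many ribosomal protein genes have near-identical pseudogene copies, so their counts are uncertain.

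Among 13 genes for ion and fluid transport, 8 were higher and 3 lower (9 and 3 after centring). The calcium-activated chloride channel Ano1 stood at 52.9, 29.9 and 48.0 CPM in WT/WT and 32.2, 66.1 and 60.1 CPM in MIS/MIS cultures, against 8.88 ± 2.86 CPM in Secretory2, and Clic6 averaged 37.2 ± 9.50 CPM against 10.3 ± 2.11 CPM. The water channel Aqp5 had a log2 ratio of 0.30 ± 0.10. Scnn1a, a subunit of the epithelial sodium channel, had one of -0.41 ± 0.12. Of 18 interferon response genes, 16 were higher and 0 lower (18 and 0 after centring). Isg15 stood at 42.1, 42.1 and 110.0 CPM in WT/WT and 84.9, 34.9 and 112 CPM in MIS/MIS cultures, and Irf7 at 27.5, 28.7 and 48.1 CPM in WT/WT and 46.6, 19.8 and 54.97 CPM in MIS/MIS cultures. Both were high in WT3, MT1301 and MT1383 and low in WT1, WT2 and MT1306, a split that again crossed the genotypes and was not that of Scgb3a1. The only MHC class II gene with at least 10 CPM was Cd74.

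Of 13 transcription factors of secretory cells, 3 were higher and 4 lower in Secretory1, and 8 were higher and 2 lower after centring, so that the balance depended on the scaling. Nfia averaged 72.8 ± 6.75 CPM against 46.4 ± 3.35 CPM. Nkx2-1, a lung and airway homeobox factor, averaged 69.0 ± 4.69 CPM against 82.0 ± 4.66 CPM, and the forkhead factor Foxa1 123 ± 11.8 CPM against 123 ± 15.01 CPM. Of 10 Notch pathway genes, 0 were higher and 4 lower (3 and 4 after centring). The Notch target Hes1 averaged 259.8 ± 36.8 CPM against 289 ± 33.1 CPM and the target Hey1 93.1 ± 13.9 CPM against 86.7 ± 26.7 CPM. The ligand Jag2 averaged 1.82 ± 0.824 CPM against 9.79 ± 2.59 CPM, and the receptor Notch1 9.59 ± 1.93 CPM against 18.7 ± 5.40 CPM. Of 15 immediate-early and stress genes, 4 were higher and 2 lower (5 and 1 after centring). Jun was at 441, 427 and 492 CPM in WT/WT and 562, 608 and 496 CPM in MIS/MIS cultures, against 198 ± 56.2 CPM in Secretory2. Of 7 genes of axonemal families, 0 were higher and 3 lower (0 and 1 after centring).

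Markers of other cell types were at or near 0 in Secretory1, with a few exceptions. The summed level of 8 multiciliated markers lay between 15.7 and 42.3 CPM, with the highest value in MT1383, and Foxj1 averaged 1.88 ± 0.418 CPM. Sums of the neuroendocrine, tuft, fibroblast and endothelial markers were at most 3.29 CPM in any culture. Of the goblet markers, Agr2 stood at 333, 243 and 375 CPM in WT/WT and 276, 185 and 476 CPM in MIS/MIS cultures, while Muc5b averaged 2.71 ± 2.01 CPM and Muc5ac 0.863 ± 0.407 CPM. The gel-forming mucins thus stayed at a few CPM or less over the cluster as a whole. A UMI of Muc5b was found in 4.44% ± 2.27 of Secretory1 cells before thinning. The share was 0.57% ± 0.66 in Secretory2 and 0.10% ± 0.17 in Multiciliated3. Ptprc, the pan-leukocyte marker, averaged 0.0039 CPM, and apart from Lyz2 only Cd68 (24.5 ± 5.76 CPM) of the immune list was above 1 CPM. The 8 basal markers summed to between 1229 and 2789 CPM, of which Krt15 gave the most, at 1377, 2522 and 1240.3 CPM in WT/WT and 1639, 1722 and 1003 CPM in MIS/MIS cultures, followed by Pdpn with 147 ± 27.0 CPM and Aqp3 with 110.3 ± 16.2 CPM. Krt15 was highest in WT2 and lowest in MT1383. Trp63, the basal cell transcription factor, averaged 1.66 ± 0.672 CPM. Hillock and squamous markers summed to between 132 and 424 CPM, with the highest value in MT1301. Deuterosomal markers summed to at most 10.6 CPM, ionocyte markers to at most 3.89 CPM, cycling markers to at most 3.95 CPM and alveolar markers to at most 100.02 CPM, of which Hopx gave 58.1 ± 10.3 CPM.

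The authors' table also holds clusters at a finer resolution (0.6), and Secretory1 fell into several of them. Finer cluster 1 held 3445 Secretory1 cells (70.9%) and no cell of another name. Finer cluster 5 held 904 (18.6%) together with 954 cells of other names, of which 495 were Basal3. Finer cluster 7 held 300 beside 1154 Basal2 cells, and finer cluster 11 held 191 beside 502 Multiciliated1 cells. The share of Secretory1 cells in finer cluster 5 differed by culture. It was 10.3% in WT1 (95% exact binomial interval 7.37% to 13.8%), 31.0% in WT2 (28.5% to 33.6%) and 11.5% in WT3 (8.85% to 14.5%). It was 39.4% in MT1301 (36.2% to 42.7%), 10.7% in MT1306 (7.75% to 14.3%) and 1.06% in MT1383 (0.595% to 1.74%). Finer cluster 11 took 10.1% of the Secretory1 cells of MT1383 (8.60% to 11.8%) and at most 3.21% in any other culture. These intervals cover counting error only.

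Cells of finer clusters 1 and 5 differed in the genes that mark Secretory1. In the 5 cultures with at least 20 cells in both, Scgb3a1 had a mean log2 ratio of finer cluster 5 to finer cluster 1 of -2.98 (range -3.94 to -1.71), Trf of -1.71 (range -2.28 to -0.95) and Scgb3a2 of -1.07 (range -1.62 to -0.61). Reg3g had -1.08 (range -1.36 to -0.62) and Bpifa1 -0.92 (range -1.12 to -0.76). All 5 cultures were lower in finer cluster 5 for each of these genes. In the other direction stood Areg, an epidermal growth factor receptor ligand, with 2.84 (range 2.23 to 3.47), Phlda1 with 2.27 (range 2.03 to 2.51) and Ptgs2, the inducible cyclooxygenase, with 1.99 (range 1.26 to 2.52). The median cell had 36571 UMIs in finer cluster 5 and 33383 in finer cluster 1. These genes took part in the clustering, so the ratios are descriptions.

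**Figure D4:**
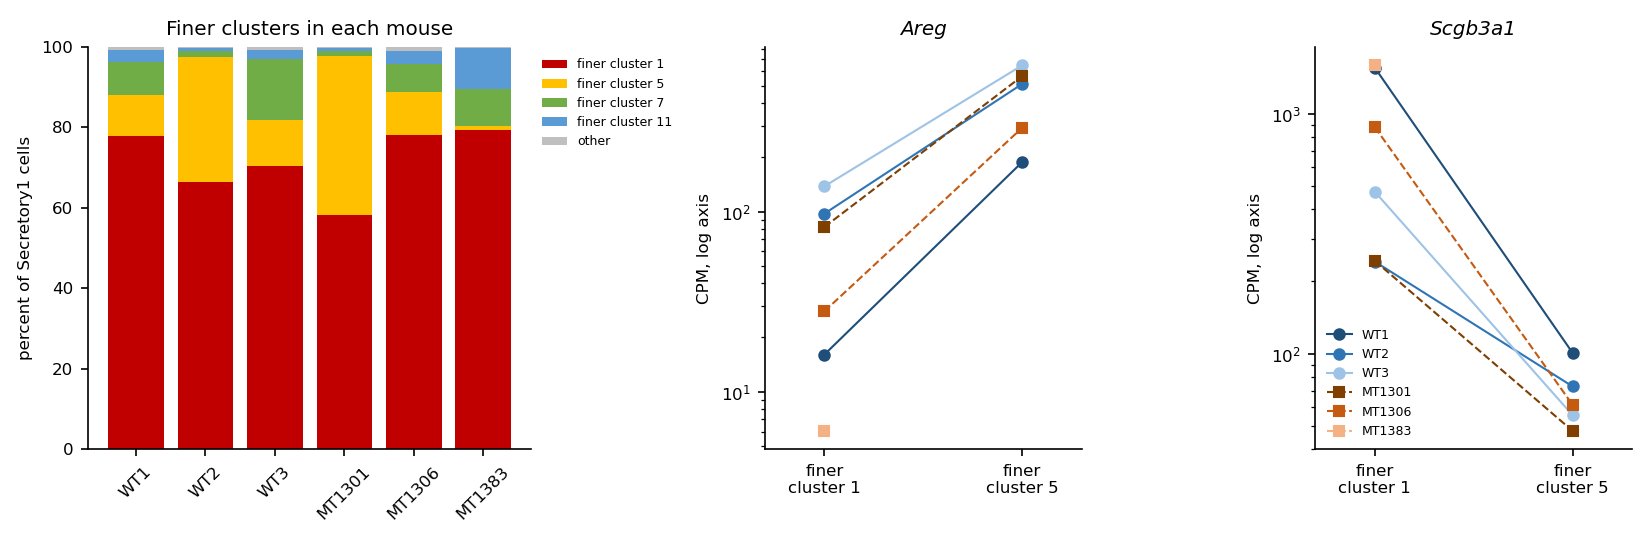
Left, percent of Secretory1 cells (y axis) in each finer cluster for each mouse (x axis); middle and right, level of Areg and Scgb3a1 (CPM, log axis) in finer clusters 1 and 5, 1 line per mouse, with MT1383 shown in finer cluster 1 only because it had 15 cells in finer cluster 5. WT2 and MT1301 have the largest part in finer cluster 5, and in every mouse with both, Areg is higher and Scgb3a1 lower in finer cluster 5.

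Among 1381 genes with at least 100 CPM, the median SD over the 6 cultures was 0.10 on the log2 scale. The 10 most variable were Areg, Scgb3a1, Ptgs2, Phlda1, Ppargc1a, Pigr, Pthlh, Cyba, Scgb1a1 and Gclc, with SDs from 0.77 to 1.86. Areg stood at 35.0, 223 and 192 CPM in WT/WT and 267, 57.0 and 9.18 CPM in MIS/MIS cultures. It was lowest in MT1383, WT1 and MT1306, the cultures in which Scgb3a1 was highest. Ptgs2 stood at 150.4, 265 and 174 CPM in WT/WT and 403, 106 and 46.4 CPM in MIS/MIS cultures, with WT2 and MT1301 on top. Gclc, the catalytic subunit for glutathione synthesis, stood at 429.9, 808 and 605 CPM in WT/WT and 830.3, 389 and 201 CPM in MIS/MIS cultures, again with WT2 and MT1301 on top. Pthlh, a parathyroid hormone-related peptide, was at 163, 328 and 164 CPM in WT/WT and 493, 103 and 153 CPM in MIS/MIS cultures. Cyba, a subunit of the superoxide-generating oxidase, was at 217, 155 and 49.0 CPM in WT/WT and 180.1, 226 and 194 CPM in MIS/MIS cultures and differed from the others in that WT3 alone was low. Within finer cluster 1 alone, a choice made after the data were seen, the SD was 1.68 for Areg, 1.24 for Scgb3a1, 0.79 for Ptgs2, 0.67 for Phlda1 and 0.78 for Ppargc1a, against 1.86, 1.32, 1.07, 0.98 and 0.95 in all Secretory1 cells. Of the other 5 genes, Scgb1a1 had 0.83 there against 0.81, and Pigr, Pthlh, Cyba and Gclc had between 0.71 and 0.89. The part of the finer clusters in the spread was not tested. Median UMIs per cell were lowest in MT1383, and the part of depth in these differences was not tested.

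The genotypes were compared next. Secretory1 made up 13.0% of all cells in WT1 (95% exact binomial interval 11.8% to 14.3%), 26.6% in WT2 (25.4% to 27.9%) and 18.9% in WT3 (17.5% to 20.4%). It made up 22.1% in MT1301 (20.8% to 23.4%), 13.99% in MT1306 (12.7% to 15.4%) and 21.1% in MT1383 (20.1% to 22.1%). The means were 19.5% ± 6.82 and 19.1% ± 4.41 (exact permutation p = 1, two-sided, n = 3 each). Of the secretory cells, Secretory1 made up 55.4%, 54.9% and 67.2% in WT/WT and 57.4%, 47.2% and 88.8% in MIS/MIS cultures, or 59.2% ± 6.95 and 64.5% ± 21.7 (exact permutation p = 0.8, two-sided, n = 3 each). With 3 mice per genotype the smallest p these tests can give is 0.1. MT1383 stood apart in the latter share, and without it the difference turned from 5.29 to -6.86 percentage points.

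Dnaaf5 itself was low in Secretory1, at 5.67, 5.13 and 5.62 CPM in WT/WT and 7.45, 6.07 and 5.41 CPM in MIS/MIS cultures, against 68.4 CPM in Multiciliated3. The genotypes overlapped. A missense allele need not alter the level of its transcript, so this level does not check the labels. Of 13174 genes tested with limma's voom test on the sums per mouse, 1 rose in MIS/MIS Secretory1 cells at an adjusted p below 0.05 (0.00759% of the genes) and 0 fell (0%). At an unadjusted p below 0.05 there were 304 genes in both directions together, a count that ran from 172 without WT2 to 1363 without MT1301 when 1 mouse was left out. Where no gene differs, such a threshold passes a share of 0.05 on average. The 304 of 13174 genes were a smaller share than this, and the 1363 of 13043 genes without MT1301 a larger one. The fit by limma-trend in place of voom also called 1 gene higher and 0 lower. The gene that rose was Wdfy1, which encodes a phosphoinositide-binding protein of endosomes. It stood at 22.8, 24.8 and 18.5 CPM in WT/WT and 64.4, 72.8 and 81.2 CPM in MIS/MIS cultures in Secretory1. The genotypes were apart, with log2 MIS/MIS over WT/WT of 1.70 ± 0.14 (SE; limma adjusted p = 0.0461, 95% interval 1.38 to 2.03). In Secretory2 it stood at 26.0, 25.9 and 21.7 CPM in WT/WT and 68.6, 76.8 and 78.5 CPM in MIS/MIS cultures, where the genotypes were apart too (Secretory1 minus Secretory2 log2 change 0.11 ± 0.09, 95% interval -0.09 to 0.32). The split was not confined to secretory cells. Thinned Multiciliated3 cells held a UMI of Wdfy1 in 9.25%, 17.6% and 12.8% of cells in WT/WT and 47.5%, 46.2% and 49.7% in MIS/MIS cultures. In thinned Basal4 cells the shares were 6.20% in WT1, 5.99% in WT3, 25.4% in MT1306 and 34.5% in MT1383. The call of Wdfy1 in Secretory1 was lost with upper-quartile normalization (limma adjusted p = 0.0694). It was also lost in 5 of the 6 fits that left out 1 mouse, all but the one without MT1301. Its log2 change stayed between 1.58 and 1.83.

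None of the 5 markers passed the test. Their log2 changes were -0.31 ± 0.54 for Scgb1a1 (95% interval -1.57 to 0.94), 0.26 ± 0.88 for Scgb3a1 (-1.78 to 2.31), 0.34 ± 0.34 for Scgb3a2 (-0.47 to 1.14), 0.17 ± 0.39 for Bpifa1 (-0.74 to 1.08) and -0.03 ± 0.27 for Reg3g (-0.66 to 0.61), each with a limma adjusted p of 1. A 2-fold rise (log2 change of 1) lies inside the intervals of Scgb3a1, Scgb3a2 and Bpifa1, and a 2-fold fall inside those of Scgb1a1 and Scgb3a1. The 5 genes with the lowest p among those that were lower in MIS/MIS cells did not pass either (limma adjusted p = 1). Spp1, osteopontin, was at 2.07, 3.17 and 2.15 CPM in WT/WT and 0.825, 0.298 and 0.474 CPM in MIS/MIS cultures, a low level in every culture. Gm47283, an unnamed gene model, was at 19.8, 34.3 and 53.8 CPM in WT/WT and 0.683, 9.94 and 0.391 CPM in MIS/MIS cultures, Slc6a15, an amino acid transporter, at 42.1, 52.1 and 41.3 CPM in WT/WT and 25.8, 19.2 and 29.1 CPM in MIS/MIS cultures, Ly6d, a gene of squamous and hillock cells, at 62.8, 77.2 and 63.3 CPM in WT/WT and 49.8, 39.3 and 33.8 CPM in MIS/MIS cultures, and the potassium channel Kcna6 at 9.81, 13.99 and 11.7 CPM in WT/WT and 7.74, 7.38 and 6.19 CPM in MIS/MIS cultures. The genotypes did not overlap for any of these 5, but the genes were picked by their low p, which favours such separation. Over all genes tested the share without overlap was 3.76% on the higher and 2.48% on the lower side.

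**Figure D5:**
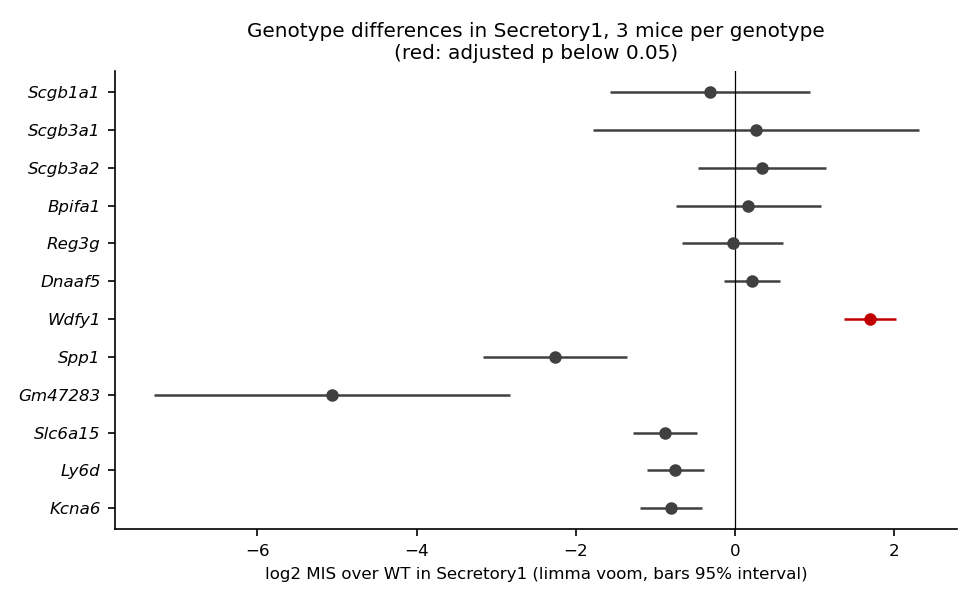
Log2 of MIS/MIS over WT/WT in Secretory1 (x axis, limma voom, bars 95% intervals, 3 mice per genotype) for the 5 markers, Dnaaf5 and the genes named by the test (y axis). Wdfy1 (red) is the only gene past the adjusted threshold, and the intervals of the 5 markers and Dnaaf5 include 0.

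By list, 0 genes passed the test in either direction in any of the lists, and the median log2 change of all tested genes was 0.00. The secretoglobins had a median of 0.23 (4 tested), the defence genes 0.04 (24 tested, 14 above and 10 below 0), the mucus genes 0.09 (18 tested) and the xenobiotic enzymes -0.11 (34 tested, 11 above and 23 below 0). The genes of the endoplasmic reticulum had a median of -0.02 (40 tested), ion and fluid transport -0.02 (16 tested), Notch -0.04 (14 tested), the transcription factors 0.03 (16 tested), interferon 0.12 (25 tested), MHC class II 0.17 (7 tested), and immediate-early and stress genes 0.09 (15 tested). Of the glutathione and prostaglandin genes, some of which the study had picked on these samples, so that the list is no independent evidence, 13 of 15 were below 0, with a median of -0.27. The study described lower transcripts of these pathways for motile ciliated cells, a different cell type. Gclc overlapped between the genotypes, with log2 -0.57 ± 0.47, and so did Ptgs2 with -0.61 ± 0.69. The lowest member was at -0.74. Of the ribosomal protein genes, 68 of 76 were above 0 with a median of 0.05, beside 6749 of all 13174 genes tested. All MIS/MIS cultures were above all WT/WT cultures for 24 of the ribosomal genes and below them for 1, where 3.76% and 2.48% of all genes were. Of genes of axonemal families, 37 of 43 were above 0 with a median of 0.31, and of the multiciliated markers 7 of 7 with a median of 0.58. The summed multiciliated markers were at 21.7, 15.7 and 19.2 CPM in WT/WT and 16.4, 27.0 and 42.3 CPM in MIS/MIS Secretory1 cells, so that MT1301 lay within the WT/WT range. The ciliated cluster Multiciliated3 held 173 of 2842, 250 of 4844 and 265 of 2771 cells in the WT/WT cultures. In the MIS/MIS cultures it held 381 of 4031, 457 of 2673 and 1186 of 6710 cells. The part of free RNA from ciliated cells in these low levels was not tested. Finer cluster 11, shared with Multiciliated1, held 10.1% of the Secretory1 cells of MT1383, and Multiciliated1 drew 604 of its 1108 cells from that culture. In MT1383, Tppp3 stood at 16.7 CPM in finer cluster 1 and 9.85 CPM in finer cluster 11, and Dynlrb2 at 13.8 and 7.83 CPM. Sntn stood at 3.90 and 1.52 CPM and Foxj1 at 2.85 and 2.02 CPM. The axonemal genes were mixed. Cfap298 stood at 43.0 and 56.6 CPM and Cfap36 at 64.6 and 64.9 CPM. Cfap20 stood at 48.3 and 47.2 CPM and Cfap97 at 26.8 and 26.3 CPM. The part of finer cluster 11 in the axonemal values was not tested. The hillock and squamous markers were below 0 in 6 of 6, with a median of -0.75, and their sum was 288, 269 and 228 CPM in WT/WT and 424, 167 and 132 CPM in MIS/MIS cells, which overlap.

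The genotype effect in Secretory1 was then set against that in Secretory2 of the same mice. Of 12274 genes, 0 (0%) differed at an adjusted p below 0.05 by limma-trend on the differences within mice, 361 did at an unadjusted p below 0.05, and voom with the mouse as a term gave 0 and 398. Both unadjusted counts were a smaller share than the 0.05 given on average where no gene differs. For Scgb1a1 the effect in Secretory1 minus that in Secretory2 was 0.53 ± 0.46 on the log2 scale (95% interval -0.50 to 1.57), for Scgb3a1 -0.003 ± 0.64 (-1.43 to 1.43), for Scgb3a2 -0.05 ± 0.15 (-0.40 to 0.29), for Bpifa1 -0.16 ± 0.15 (-0.48 to 0.17) and for Reg3g 0.14 ± 0.23 (-0.37 to 0.65). The Scgb1a1 value was 0.037 without MT1383 and 1.22 without MT1301, that of Bpifa1 -0.05 without WT1 and -0.31 without WT3, and that of Scgb3a1 -0.65 by voom with the mouse as a term. The lowest p was that of Slc16a11, a monocarboxylate transporter family gene named here after its value was seen. It was at 149.8, 48.6 and 98.3 CPM in WT/WT and 79.5, 181 and 159.8 CPM in MIS/MIS cultures in Secretory1 and 127, 41.1 and 79.1 CPM in WT/WT and 47.8, 87.9 and 83.1 CPM in MIS/MIS cultures in Secretory2, a difference of 0.64 ± 0.09 (limma adjusted p = 0.356). Without MT1301 it was the 1 gene past the threshold (limma adjusted p = 0.0472).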

How the data were processed

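Cells of 6 mouse tracheal cultures were profiled with 10x 3′ libraries. The authors aligned the reads, counted UMIs per gene and cell and deposited 1 table of these counts with no other scaling, whose fields are separated by a mistyped tab, and 1 cell table with mouse, cluster and cluster name. The submitters' processing notes name Cell Ranger 7.1.0 and mm10, while the study's methods name an earlier Cell Ranger. The methods state filters of 2500 to 7500 genes and at most 25% mitochondrial UMIs per cell, and manual naming of clusters. All 23871 cells held whole counts whose totals matched the cell table.

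From these, UMIs were summed per mouse and cluster where at least 20 cells were present, and CPM and log2 ratios (pseudocount 1 CPM) were computed. Genotypes were compared with limma 3.58.1 (voom) in R 4.3.3, with trimmed mean (TMM) factors (trims 0.3 and 0.05), genes with at least 10 UMIs in a library of median size in 3 mice and 15 in all, and Benjamini-Hochberg adjustment at 0.05. The difference from Secretory2 was tested by limma-trend on log2 differences within mice. Shares of cells were compared by exact permutation over mice. Each genotype has 3 mice with 1 library each, so p-values measure the spread between these cultures. The scripts were tested on simulated data. Python 3.11.15 was used otherwise.

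Named genes were the 5 markers, Dnaaf5 and Wdfy1, the 15 highest against the next cluster (at least 50 CPM), the 15 highest and 10 lowest against Secretory2, genes past the genotype threshold or else the 5 with the lowest p in that direction, the 10 most variable over mice (at least 100 CPM), and the 4 highest of each gene list. Other list members and Slc16a11 were named after their values were seen. The members and the 29 lists (16 of pathways, 13 of cell type markers) were chosen with earlier results of these data known. Alternatives were another normalization, filters, thinning of each cell to 5000 UMIs, another test, and leaving out each mouse. Gene positions were not used in any test.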

Additional observations from a re-analysis of the deposited data

How the results depend on the processing

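No paired analysis was possible because the mutant libraries carry animal numbers that match no replicate number of the WT/WT libraries, so no replicate block could be fitted. Every other alternative was run. The count of genes higher in MIS/MIS Secretory1 cells was 1 as reported and 0 under upper-quartile scaling, and it ranged from 0 to 1 when 1 mouse was left out, where it stayed at 1 only without MT1301. The limma adjusted p of Wdfy1 was 0.274 without WT1, 0.155 without WT2, 0.189 without WT3, 0.457 without MT1306 and 0.0797 without MT1383, and over all alternatives it ran from 0.0172 to 0.457. Leaving out a mouse also leaves fewer samples. The count of genes lower was 0 in every alternative. The count of genes whose effect differed from Secretory2 ranged from 0 to 1 when 1 mouse was left out, with the 1 gene without MT1301, and was 0 in the other alternatives.

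When 1 mouse was left out, the difference in the share of all cells ranged from -3.71 to 3.09 percentage points (2.07 without MT1306), and that in the share of secretory cells from -6.86 to 13.9. The log2 genotype values of uncalled markers ranged from -0.81 to 0.18 for Scgb1a1, -0.39 to 1.10 for Scgb3a1, 0.029 (without MT1383) to 0.70 (without MT1301) for Scgb3a2, -0.16 to 0.53 for Bpifa1 and -0.38 to 0.17 for Reg3g. The effects minus those in Secretory2 ranged from 0.037 to 1.22 for Scgb1a1, -0.31 to -0.05 for Bpifa1, -0.78 to 0.53 for Scgb3a1, -0.20 to 0.13 for Scgb3a2 and -0.085 to 0.36 for Reg3g. With the largest finer cluster alone, an alternative chosen after seeing the data, the Reg3g genotype value was 0.035 and the Bpifa1 log2 ratio of Secretory1 to Secretory2 0.74. Without the low-count filter the Scgb3a1 difference was 0.0044. Of 280 alternative values of the Secretory1 to Secretory2 ratios, 276 lay within 1 SD over mice and 0 had the opposite sign. These ratios were of the markers and of genes picked for the highest or lowest values of this same ratio. Their kept signs are thus no independent support. The cause of these shifts was not tested.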
